A study of Drosophila melanogaster with 11 samples.

Results

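yin is a gene of the X chromosome of Drosophila melanogaster that encodes a peptide transporter, and 1 gene of 6793 named on the arrays is described here, through its 2 spots of 27648. All spots listed for yin in the platform's probe table were taken, averaged on each array, and set against the median of all named genes on that array. yin was chosen by its measured ratios, which lay far below the oocyte level in smg material, in wild-type embryos and in unfertilized eggs alike. Its levels in these groups are therefore given as a description, with no test.

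The data are 11 two-colour cDNA microarrays, each with RNA of w1118 stage 14 oocytes, the last stage of oogenesis, in the second channel. The groups were smg material aged 2 to 3 h (4 arrays), w1118 embryos aged 2 to 3 h (4 arrays) and w1118 unfertilized eggs aged 4 to 6 h (3 arrays). In the source labels 3 of the smg arrays read SMG and 1 (replicate 4) reads SMGoverDf, and no allele is named. smg replicate 4 was kept in the group that its title gives. Nothing in the labels says whether replicate arrays came from separate collections, so p-values measure the spread between arrays, which may be technical.

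yin belongs to the proton-coupled oligopeptide transporters of the SLC15 family, which carry short peptides into cells together with protons. It was first described in flies as the oligopeptide transporter OPT1, and has since been studied as a carrier of bacterial cell wall fragments in immune cells. An egg is stocked with transcripts made during oogenesis, and after egg activation many of these maternal transcripts are destroyed. smg encodes Smaug, an RNA-binding protein that is made after egg activation, recruits the CCR4-NOT deadenylase to maternal transcripts and so marks many of them for decay. Activated eggs destroy maternal transcripts without fertilization too, while other decay needs transcription from the zygotic genome.

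Every value below is a log2 ratio of the sample to the oocytes after the array's gene median was subtracted, called the centred log2 ratio, unless another scale is named. A value of -1 is thus a level of transcript, relative to the median gene, that is 2-fold lower than in oocytes. Equal changes of all transcripts do not show on this scale. The oocytes were w1118 on every array, and no smg oocytes were measured. In smg a change with age and a difference already present in the oocytes therefore cannot be told apart. In RNA of eggs and embryos, less of a transcript in a part of the material and less of it throughout cannot be told apart. Which RNA is the numerator of the deposited ratio is not stated. The titles name the sample before the oocytes, which makes sample over oocyte likely, and it is the direction in which the zygotic gap gene Kr stood above the oocytes in wild-type embryos (3.94 ± 0.83, SD, n = 3) and the yolk protein gene Yp1 below them (-3.67 ± 0.42, SD, n = 4).

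Some arrays stood apart. smg replicate 1 and wild-type embryo replicate 1 had deposited medians of -4.43 and -4.01 and values for 51.1% and 48.9% of spots, against medians between -0.37 and 0.16 and at least 75.0% of spots on the others. smg replicate 3 correlated across genes below -0.3 with 4 other arrays (lowest r = -0.51) and at r = 0.76 with smg replicate 4, so its direction is not settled by the correlations. As deposited, it shared the sign of the other smg arrays with a value for Yp1 (-3.01), Yp3 (-1.75), exu (-1.56), Kr (1.47) and Inx3 (1.27). Reversing it would turn these. The genes smg (2.02), dhd (2.45), drpr (2.10) and Jabba (2.01) were above 0 on it, as on replicate 4. They were below 0 on replicates 1 and 2. Some results that rest on smg replicate 3, the group level and differences of yin among them, are printed a second time with that array's sign reversed. Other smg values are given as deposited only, and rest on that array too. The spots of smg did not part the genotypes (smg minus wild-type embryos 1.07, SE 0.81, limma adjusted p = 0.769). Of 10 measured zygotic patterning and cellularization genes, 7 were called higher in wild-type embryos (0.822% of all genes were). This list was chosen with earlier results of these data known, so its counts describe the material and are no independent check. In smg 0 of 10 were called higher by limma (0.0164% of all genes were), and 7 had an unadjusted p under 0.05 (10.4% of all genes did). In unfertilized eggs 1 of 10 was, tll (0.988% of all genes were), named after its value was seen. The 3 yolk protein genes, the only ones of 16 listed yolk and eggshell genes with a named spot, lay below the median gene on all 11 arrays. Their median on an array ran between -2.71 and -1.06 over the 11 arrays, and its part in the values of yin was not tested. Of the 2 gut markers with a named spot, 0 were called in any group. Their medians were -0.31 in smg, 0.12 in wild-type embryos and 0.13 in unfertilized eggs. Of all genes 0.0818% were called in smg. In wild-type embryos 0.822% were called higher and 2.48% lower, and in unfertilized eggs 0.988% and 10.0%. With such shares 0 of 2 says nothing about gut material.

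In smg material yin stood at -4.20, -3.35, -1.66 and -2.96 on replicates 1 to 4. In wild-type embryos it stood at -4.44, -4.10, -3.48 and -3.70. In unfertilized eggs it stood at -2.68, -2.70 and -2.84. All 11 values lay far below 0, the smg arrays were the most spread, and the unfertilized arrays lay close together. The group means were -3.04 ± 1.06 (SD, n = 4) in smg, -3.93 ± 0.43 (SD, n = 4) in wild-type embryos and -2.74 ± 0.09 (SD, n = 3) in unfertilized eggs. These means correspond to levels 8.24-fold, 15.3-fold and 6.67-fold lower than in oocytes in the same order of groups. The smg mean was -2.21 ± 2.63 (SD, n = 4) if smg replicate 3 is read with its sign reversed, and without that array it was -3.51 ± 0.63 (SD, n = 3).

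**Figure D1:**
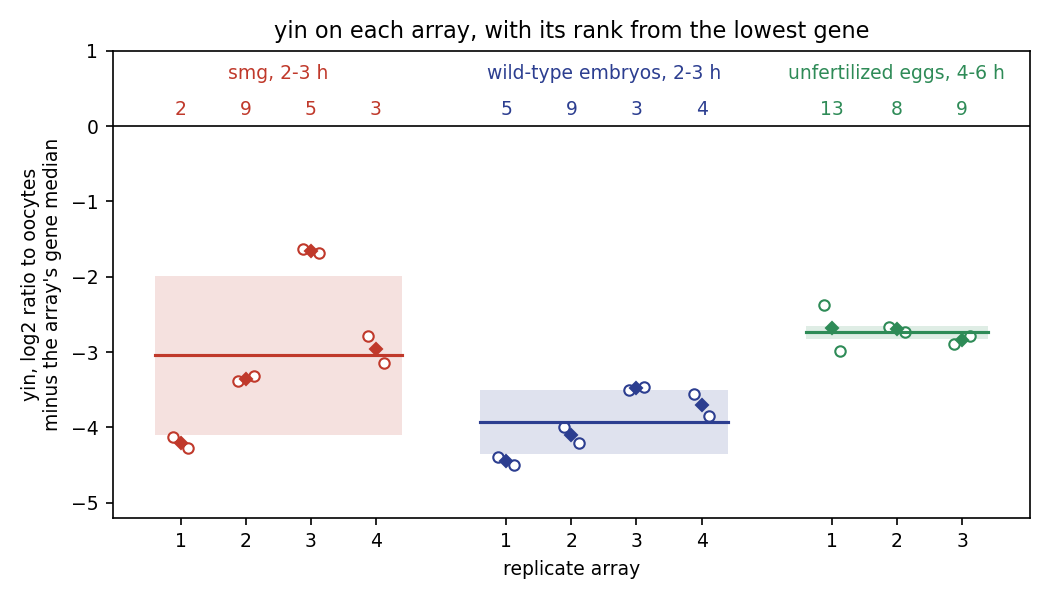
yin on each array as the centred log2 ratio to oocytes (vertical axis), with open circles for its 2 spots, diamonds for their mean, lines for group means and shading for 1 SD. The numbers above 0 are the rank of yin from the lowest gene on that array, and range from 2 to 13.

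The 2 spots gave nearly the same reading. They lie side by side on the array and share a clone in the probe table, so they are repeat readings of 1 probe and not separate evidence. Their difference was 0.05 to 0.29 on the wild-type embryo arrays and 0.06 to 0.37 on the smg arrays. It was largest on unfertilized replicate 1, at 0.62, against a median of 0.20 for all neighbouring pairs on that array. The group means from the first or the second spot alone were -2.98 and -3.11 in smg, -3.86 and -4.00 in wild-type embryos, and -2.64 and -2.83 in unfertilized eggs.

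The rank of a gene within its array does not depend on centring or on the spread of the array. yin was the 2nd, 9th, 5th and 3rd lowest gene on smg replicates 1 to 4, of 3984, 6071, 6319 and 6748 genes measured. It was the 5th, 9th, 3rd and 4th lowest on the wild-type embryo arrays, of 3824, 6775, 6777 and 6299 genes. On the unfertilized arrays it was the 13th, 8th and 9th lowest, of 6387, 6688 and 6746. On every array yin was thus among the lowest 0.204% of genes measured. Read with the sign reversed, it would be the 5th highest gene on smg replicate 3. Of 3324 genes measured on all 11 arrays, 60 (1.81%) lay below the array median on every one, yin among them.

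Few transcripts had a lower mean than yin. Among 3598 genes measured on all smg arrays it was 1, the yolk protein gene Yp1 (-3.47). Among 3772 genes on all wild-type embryo arrays these were dhd (-4.12), a female germline thioredoxin, and drpr (-4.10), the engulfment receptor Draper. Among 6248 genes on all unfertilized arrays they were drpr (-3.45), Yp1 (-2.97), CG8778 (-2.97), Pxt (-2.88), del (-2.83), Jabba (-2.83) and Hsp26 (-2.83). Pxt encodes a peroxidase that acts in the ovary, del a factor of piRNA cluster transcription, Jabba the lipid droplet anchor of histones and Hsp26 a small heat shock protein. CG8778, Pxt and Hsp26 are named for these values.

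The 4 smg values of yin overlapped the 4 wild-type values, with smg replicate 1 below 3 of the wild-type arrays and the other 3 smg arrays above all of them. In smg minus wild-type embryos yin was at 0.89 (SE 0.51, 95% interval -0.22 to 1.99), against a median of 0.17 over the 5791 genes tested, where it was the 940th largest in absolute size. As the choice of yin asked for a like level in both genotypes, this difference has no test, and an interval that holds 0 does not show that the levels were equal. The value was 1.72 (SE 0.94) with smg replicate 3 reversed and 0.43 (SE 0.43) without that array. It was 1.87 (SE 0.59) once the arrays were scaled to a common spread. The spread of the genes on an array, as a median absolute deviation, was 0.64 to 1.10 on smg arrays, 0.40 to 1.07 on wild-type embryo arrays and 0.37 to 0.53 on unfertilized arrays, and its part in the difference was not tested beyond this scaling.

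The slide numbers in the titles part the arrays at 2 to 3 h into a set with lower numbers (replicates 1 and 2) and a set with higher numbers (replicates 3 and 4), with 2 arrays of each genotype in each. In the lower-numbered set yin had a mean of -3.78 in smg and -4.27 in wild-type embryos, a difference of 0.50. In the higher-numbered set the means were -2.31 in smg and -3.59 in wild-type embryos, a difference of 1.28. Both genotypes thus had more yin in the higher-numbered set, and smg was the higher genotype in both. With the sets as a block the difference was again 0.89 (SE 0.39), and over all genes 235 were called in smg minus wild-type embryos, against 16 without the block.

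The contrast with transcripts that differ between the genotypes can be read within each array. yin minus drpr was -3.32, -2.69, -3.76 and -3.83 on smg replicates 1 to 4, against -0.03, 0.70, -0.29 and 0.28 on the wild-type embryo arrays. On the unfertilized arrays it was 0.51, 0.85 and 0.78. The smg arrays did not overlap the others: yin and drpr had similar ratios in wild-type embryos and in unfertilized eggs, and lay far apart on every smg array. yin minus Jabba averaged -3.27 ± 0.60 (SD, n = 4) in smg, -0.20 ± 0.21 (SD, n = 4) in wild-type embryos and 0.09 ± 0.10 (SD, n = 3) in unfertilized eggs. Reversing smg replicate 3 would give yin minus drpr the opposite sign on that array. drpr and Jabba were chosen with their smg values known, so the gap is a description and has no test.

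**Figure D2:**
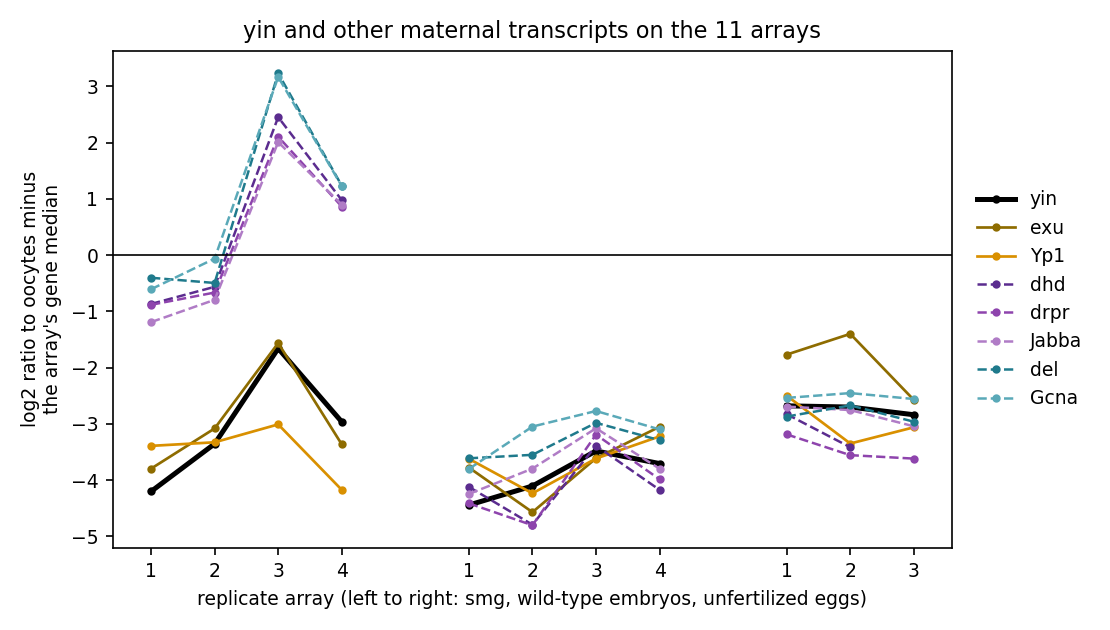
Centred log2 ratio to oocytes (vertical axis) of yin, exu and Yp1 (solid lines) and of dhd, drpr, Jabba, del and Gcna (dashed lines) on each array, with lines joining arrays of a group for legibility alone. In smg the dashed genes lie between -1.19 and 3.23 and yin between -4.20 and -1.66, while in the other groups they run together.

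The list of unstable maternal transcripts was assembled with earlier results of these data known, so its counts describe the genes chosen and support nothing about them. Of 13 tested members 12 fell in wild-type embryos (median -3.14, against 0.01 over all genes, background 2.48% lower). In smg 1 of 13 was called lower than in the w1118 oocytes (median 0.47, against 0.13 over all genes, background 0.0654% lower). That gene was exu, which acts in localising bicoid mRNA in the egg. With smg replicate 3 reversed 0 of all genes were called in smg. In smg minus wild-type embryos 8 of the 13 were higher (background 0.190% higher), 5 of them dhd at 4.62, drpr at 4.45, del at 4.25, Gcna, a germline nuclear protein, at 4.11, and Jabba at 3.96 (SE 0.63 to 0.69). In unfertilized eggs 11 of 13 fell (median -2.52, against 0.02 over all genes, background 10.0% lower). The calls between genotypes depend on the arrays used. Of all genes, 11 were called higher in smg than in wild-type embryos, and 0 were with smg replicate 3 reversed, without smg replicate 2 or 4, or without wild-type embryo replicate 1, 2 or 4. The count was 18 without smg replicate 3, 2 without wild-type embryo replicate 3 and 188 without smg replicate 1. The 157 genes called lower in wild-type embryos were 22, 16, 28 and 39 without wild-type embryo replicate 1, 2, 3 and 4.

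**Figure D3:**
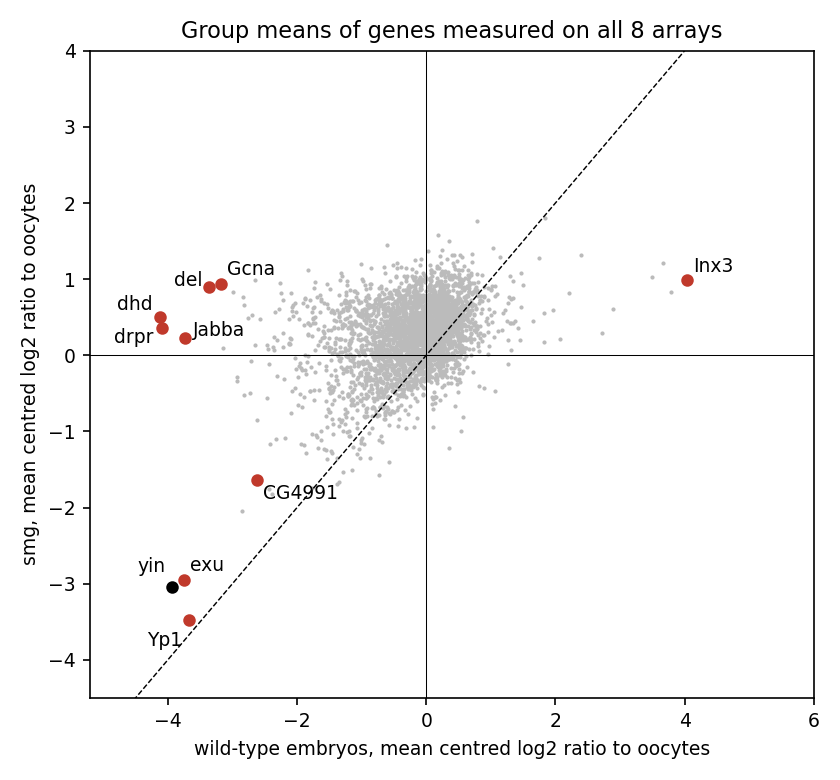
Mean centred log2 ratio to oocytes in smg (vertical axis) against wild-type embryos (horizontal axis) for 3393 genes measured on all 8 arrays, with yin in black, other named genes in red and the line of equal values dashed. yin (-3.04 in smg, -3.93 in wild-type embryos) lies near that line with exu and Yp1, while dhd, drpr, del, Gcna and Jabba lie between -4.12 and -3.18 in wild-type embryos and between 0.23 and 0.93 in smg.

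The values of yin in wild-type embryos at 2 to 3 h and unfertilized eggs at 4 to 6 h took part in its choice, so their difference is a description with no test. All 4 embryo values lay below all 3 egg values, as they did for 7.30% of 3685 genes measured on all 7 arrays. The difference was -1.19 (SE 0.49, 95% interval -2.23 to -0.15). As yin was chosen by these values, an interval that leaves out 0 does not stand for a test. It was the 40th lowest and the 135th largest in absolute size of the 6322 genes tested. Once arrays were scaled to a common spread it was -0.31 (SE 0.60). In smg minus unfertilized eggs it was -0.31 (SE 0.49, 95% interval -1.34 to 0.73), and the smg values lay on both sides of the egg values. This difference turned positive at 1.57 (SE 0.59) after scaling, at 0.52 (SE 0.94) with smg replicate 3 reversed, and at 0.081 (SE 0.43) without smg replicate 1. It was -0.77 (SE 0.39) without smg replicate 3. The embryo and smg arrays carried the sample in Alexa Fluor 647 by indirect labelling and the egg arrays in Cy3 by direct labelling. Age, fertilization, dye orientation and labelling therefore cannot be told apart in these comparisons, nor can genotype in smg minus unfertilized eggs.

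The genes with the profile nearest to yin were exu, Yp1, Cyp6a19, CG4991, Yp3 and Ggt-1. Nearness was the root mean square difference of centred log2 ratios over all 11 arrays, among 3323 other genes measured on every one, and such genes must lie low in the same groups. It was 0.61 for exu, 0.70 for Yp1, 1.08 for the cytochrome P450 gene Cyp6a19 and 1.38 for the amino acid transporter gene CG4991. It was 1.57 for Yp3 and 1.64 for Ggt-1, which encodes a gamma-glutamyl transpeptidase, against a median of 3.44 over all genes. Without smg replicate 3 the same first 4 genes led, with Yp1 ahead of exu, and Yp3 and Ggt-1 came 9th and 11th.

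exu had values of -3.79, -3.08, -1.56 and -3.36 in smg, -3.78, -4.57, -3.61 and -3.05 in wild-type embryos, and -1.77, -1.40 and -2.57 in unfertilized eggs. On the 2 to 3 h arrays yin minus exu stayed between -0.67 and 0.47. exu was picked as the nearest profile on these arrays, so small differences were set by that choice and are no result. In unfertilized eggs exu lay closer to the oocyte level than yin on all 3 arrays, with yin minus exu at -0.91, -1.30 and -0.26. Yp1 stood at -3.39, -3.33, -3.01 and -4.17 in smg. On smg replicate 3, where yin and exu were at -1.66 and -1.56, it was thus still far below 0. Ggt-1 was at -2.44 ± 0.08 (SD, n = 4) in wild-type embryos and -0.66 ± 0.35 (SD, n = 3) in unfertilized eggs, a wider gap between these groups than that of yin.

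CG4991, chosen as a near profile, lay at a similar mean distance from yin in the groups. On single arrays yin minus CG4991 ran from -1.95 to -0.94, both on wild-type embryo arrays. yin minus CG4991 averaged -1.40 ± 0.25 (SD, n = 4) in smg, -1.31 ± 0.45 (SD, n = 4) in wild-type embryos and -1.32 ± 0.30 (SD, n = 3) in unfertilized eggs. Its own levels were -2.55, -1.94, -0.60 and -1.47 in smg, -2.49, -3.17, -2.22 and -2.61 in wild-type embryos, and -1.27, -1.72 and -1.28 in unfertilized eggs. Like yin it was below 0 on all 11 arrays and highest on smg replicate 3. CG4991 fell in wild-type embryos (-2.62, SE 0.31, limma adjusted p = 9.54e-04) and in unfertilized eggs (-1.42, SE 0.18, limma adjusted p = 7.74e-05). In smg it did not pass (-1.64, SE 0.32, limma adjusted p = 0.112), although it passed there in 3 of 16 alternative settings, among them the slide sets as a block (limma adjusted p = 0.0101).

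The other genes that move or split short peptides and amino acids were mostly unlike yin. Of 39 listed genes besides yin, 26 were tested in wild-type embryos and 4 of them fell (background 2.48% lower), with a median of -0.11 against 0.01 over all genes. In smg 0 of 24 were called by limma (2 at an unadjusted p under 0.05, both lower). Of all genes 0.0818% were called in smg and 10.4% had an unadjusted p under 0.05, and the median of the list was -0.23 against 0.13. In smg minus wild-type embryos 0 of 23 were called by limma (3 at an unadjusted p under 0.05), with a median of 0.25 against 0.17. Of all genes 0.276% were called there, 0.0863% as lower in smg, and 10.1% had an unadjusted p under 0.05. In unfertilized eggs 8 of 27 fell (background 10.0% lower), with a median of -0.12 against 0.02. The count of 4 in wild-type embryos was 2 without wild-type embryo replicate 1 and 1 without replicate 2, 3 or 4. The count of 8 in unfertilized eggs was 5 without unfertilized replicate 1 and 4 without replicate 2. Reversing smg replicate 3 left the counts at 4 in wild-type embryos and 0 in both smg comparisons.

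Of the peptide transporter family itself, 1 other member was measured. CG9444 was at 0.39, -0.89 and -0.37 on smg replicates 2 to 4, at 0.64, -0.17 and -0.39 on wild-type embryo replicates 2 to 4, and at 0.55, 0.95 and 0.11 in unfertilized eggs. It had no value on the 2 arrays with low medians. Its values lay on both sides of 0, and it passed no test (limma adjusted p = 0.812 in smg, 0.991 in wild-type embryos and 0.102 in unfertilized eggs). The third member, CG2930, has no named spot. In RefSeq's gene table (assembly Release 6 plus ISO1 MT) CG2930 follows yin on the X chromosome and overlaps it. No source at hand says whether the clone on the yin spots reaches into that overlap, so a part of CG2930 in the signal was not tested.

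Amino acid transporters held 3 of the falls in wild-type embryos. Besides CG4991 these were slif, the cationic amino acid transporter slimfast (-2.32, SE 0.40, limma adjusted p = 0.00997), and path, an amino acid transporter of the SLC36 family (-1.29, SE 0.27, limma adjusted p = 0.0245). slif was at -1.86, -2.24, 0.43 and -0.72 in smg, against -1.71, -3.14, -2.33 and -2.11 in wild-type embryos. The smg arrays with lower slide numbers lay in the range of the wild-type arrays and the other two above it. The mean of slif in smg was -1.10 (SE 0.40, limma adjusted p = 0.430). In unfertilized eggs slif (-2.02, SE 0.23), path (-1.46, SE 0.18), dmGlut (-1.44, SE 0.26), CG4991 and mnd (-0.57) fell. mnd was named after its value was seen.

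**Figure D4:**
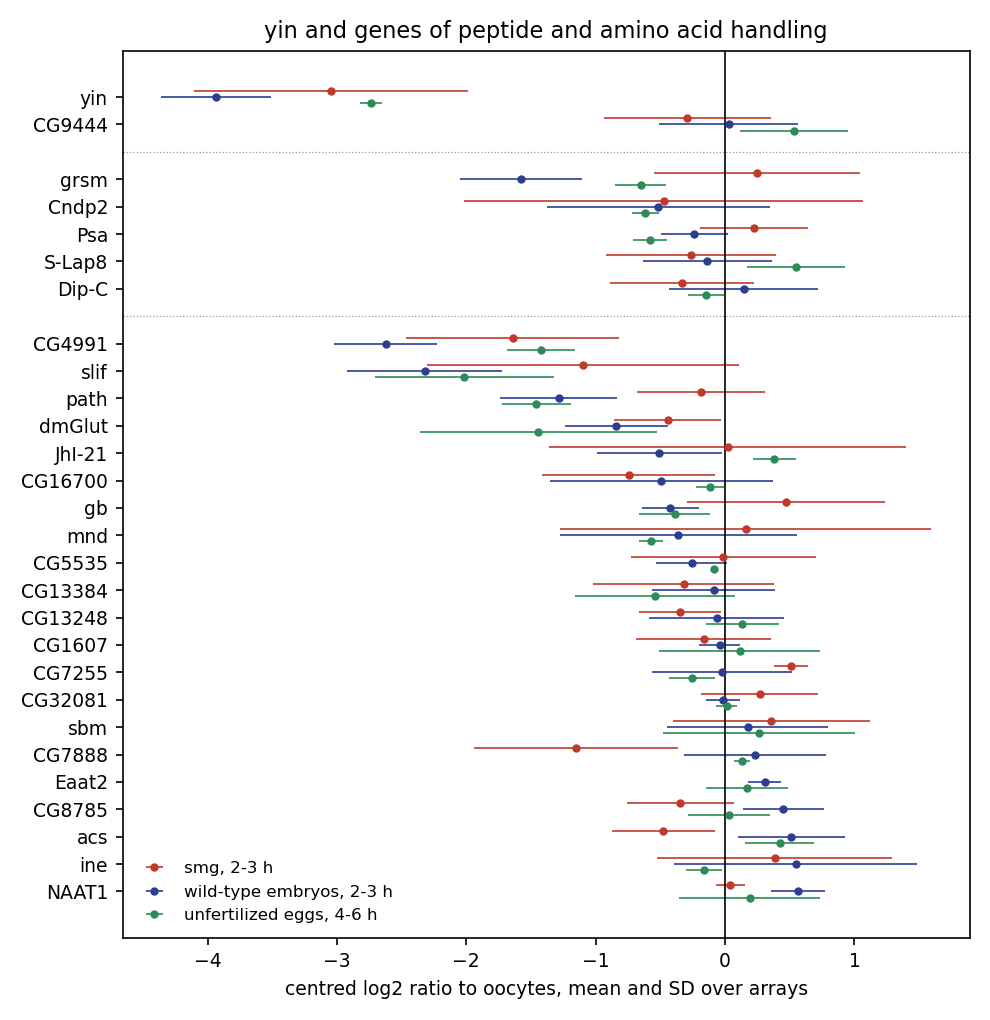
Centred log2 ratio to oocytes (horizontal axis, mean and SD over arrays, drawn where at least 2 arrays of a group had a value) for yin and CG9444 (top block), peptidases of short peptides (middle) and amino acid transporters (bottom). yin lies to the left of every other gene in each group, with CG4991 and slif next to it in wild-type embryos, and most genes lie near 0.

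The peptidases, which split short peptides inside cells, gave 1 fall of 5 tested in wild-type embryos (background 2.48% lower). It was grsm, the leucyl aminopeptidase granny smith (-1.58, SE 0.32, limma adjusted p = 0.0208). grsm was at -0.65, -0.20, 0.95 and 0.88 in smg, against -1.35, -2.26, -1.21 and -1.48 in wild-type embryos. All smg values lay above all wild-type values, as for 8.81% of 3393 genes, and the difference of 1.82 (SE 0.45) did not pass (limma adjusted p = 0.154). It passed in 4 of 16 alternative settings, among them the slide sets as a block (limma adjusted p = 0.0103). In unfertilized eggs 3 of 5 fell (background 10.0% lower), namely grsm (-0.65), the dipeptidase gene Cndp2 (-0.62) and the puromycin-sensitive aminopeptidase gene Psa (-0.58).

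Proton pumps and exchangers move the protons that such transporters use. All 9 tested had means below 0 in wild-type embryos, with a median of -0.93 against 0.01 over all genes. Of all genes 50.8% had a mean above 0 there. Among the 9, 1 fell (background 2.48% lower), Vha55, the B subunit of the vacuolar proton pump (-1.66, SE 0.35, limma adjusted p = 0.0240). In smg 0 of 9 were called by limma (1 at an unadjusted p under 0.05, as were 10.4% of all genes). The median in smg was -0.37 against 0.13 over all genes. There 6 of 9 means lay below 0, while 61.8% of all genes had a mean above 0. On smg replicate 3 the list's median was 0.88, with 8 of 9 above 0, and over the smg arrays Vha55 was at -1.32, -1.30, 0.88 and -0.08. In unfertilized eggs 4 of 9 fell (background 10.0% lower): Vha44, the C subunit of the pump (-1.36), Vha55 (-1.12) and the sodium/proton exchangers Nhe3 (-0.84) and Nhe1 (-0.81). All 9 were higher in smg than in wild-type embryos by value, between 0.13 and 1.34, with 0 called by limma (1 at an unadjusted p under 0.05), while 63.9% of all genes had a positive difference.

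Of 7 sugar and other solute transporters tested in wild-type embryos 1 fell (background 2.48% lower), the sugar transporter gene sut1 (-1.39, SE 0.33, limma adjusted p = 0.0454), and the median was -0.06. It also fell in unfertilized eggs (-1.49, SE 0.19, limma adjusted p = 7.54e-05), as 1 of 8 tested, near the 10.0% called lower of all genes. In smg sut1 was at -0.70, -0.73, 0.74 and 0.76, below 0 on the lower-numbered slides and above it on the others, and 0 of 8 were called by limma (1 at an unadjusted p under 0.05, near the 10.4% of all genes).

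The nearest measured genes on either side of yin on the X chromosome did not share its level, and none of them is adjacent to it. The 2 nearest with a named spot on either side in RefSeq's gene table were HIP, a cochaperone of Hsp70, and Parg, which removes poly(ADP-ribose), on one side and CG15239 and CG2938 on the other. Their group means lay between 0.29 and 1.26 in smg, between -0.59 and 0.59 in wild-type embryos, and between 0.09 and 0.41 in unfertilized eggs. None of the 4 passed the limma test in these groups, with adjusted p between 0.166 and 0.985. Of all genes 0.0818% were called in smg, 2.48% as lower in wild-type embryos and 10.0% as lower in unfertilized eggs.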

How the data were processed

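Per the submitters' design text, QuantArray 3 quantified the scans and GeneTraffic Duo 3.2 normalized each array by a LOWESS on rank-invariant spots. How background was corrected and which spots were filtered is not given here. The authors deposited a log ratio, taken here as log2, for each spot on each array, without channel intensities, so signal over background is unknown. That the base is 2 was inferred, since values reach -11.92, beyond the 11.1 that a natural logarithm of raw 16-bit ratios allows. Normalized values can pass that bound, and deposited medians were -4.43 and -4.01 on smg and wild-type embryo replicate 1. The base is thus likely but not certain, and the fold values rest on it.

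Spots with 1 gene in the probe table (15116 of 15218 listed) were averaged to 6793 genes, of which 6692 matched RefSeq by gene number, and each array's gene median was subtracted. Genes with values on at least 3 of 4 arrays (2 of 3 for unfertilized eggs) in each group compared were tested two-sided in limma 3.58.1 (R 4.3.3; lmFit, eBayes), with Benjamini-Hochberg adjustment over all genes tested and a threshold of 0.05. The 8 arrays at 2 to 3 h shared a fit, unfertilized eggs were fitted alone, and comparisons across both used all 11. Group means were tested against 0, since no oocyte sample was hybridised against the oocyte RNA. The steps were tested on simulated data. Replicates were numbered in order of deposition.

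Named genes were yin, its measured family, up to 4 called genes of each list, the 6 nearest profiles, the 2 nearest measured genes per side on the chromosome and 9 reference genes. yin and the lists were chosen with earlier results of these data known.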

Additional observations from a re-analysis of the deposited data

Results flagged for a closer look

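Among the named genes with values on all 4 arrays of a group at 2 to 3 h, 56 sets of 4 were checked for 1 array far from the other 3, and chance marks about 1 in 20. It marked 1: CG2938, among the nearest measured genes beside yin, was at 0.39 on wild-type embryo replicate 4, against -0.65, -0.55 and -0.50 on the others. yin had no such array.

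Named genes whose ratio to the w1118 oocytes differed between smg and wild-type embryos by limma were dhd (4.62), drpr (4.45), del (4.25), Gcna (4.11), Jabba (3.96) and Inx3 (-3.05), the last a gap junction gene. The limma adjusted p was between 0.0133 and 0.0278. For those higher in smg, no smg array overlapped a wild-type array, as for 8.81% of 3393 genes. They are listed for passing the test on these same arrays, so this is no separate result. In wild-type embryos minus unfertilized eggs Inx3 (4.32) and Kr (3.66) differed, and in smg minus unfertilized eggs drpr (3.81), del (3.73) and Gcna (3.45) did. yin was at 0.89, -1.19 and -0.31 in the same comparisons. The other genes are listed here for passing the test, and yin was chosen for lying low in all groups. That its differences are smaller was thus set by these choices and is no result.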

How the results depend on the processing

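yin stayed below the oocyte level in all alternatives run: 18 for smg (-4.16 to -2.21), 18 for wild-type embryos (-4.93 to -3.76) and 10 for unfertilized eggs (-3.89 to -2.64). Without centring, as deposited, it was -4.16 in smg and -4.93 in wild-type embryos, and differed by -2.17 in wild-type embryos and -1.39 in smg from unfertilized eggs. Scaling arrays to a common spread gave -3.89 in unfertilized eggs, 1.87 in smg minus wild-type embryos, -0.31 in wild-type embryos minus unfertilized eggs and 1.57 in smg minus unfertilized eggs. Turning smg replicate 3 gave 1.72 and 0.52 for the 2 smg differences. Leaving out the pair with low medians gave 0.081 in smg minus unfertilized eggs. Single spots gave -2.64 and -2.83 in unfertilized eggs. Leaving out 1 array in turn gave -3.51 to -2.66 in smg, -4.08 to -3.76 in wild-type embryos, -2.77 to -2.69 in unfertilized eggs, 0.43 to 1.27 in smg minus wild-type embryos, -1.34 to -1.02 in wild-type embryos minus unfertilized eggs, and -0.77 to 0.081 in smg minus unfertilized eggs. The causes were not tested.

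Of the peptide and amino acid genes, wild-type embryos had 4 called, 0 as deposited, 2 without the low-median pair, and 1 to 4 without 1 array. In smg it was 0, 1 with slide sets as a block or 1 fit of all 11 arrays, and 0 to 1 without 1 array. In smg minus wild-type embryos it was 0, 1 with the block, with scaling or with 1 fit, and 0 to 1 without 1 array. In unfertilized eggs it was 8, 4 as deposited, 2 with 1 fit, and 4 to 6 without 1 array. Over all genes the counts were 209 in wild-type embryos (0 as deposited, 528 with the block, 88 without the pair, 584 scaled, 407 with 1 fit), 5 in smg (0 as deposited, turned or scaled, 33 with the block, 1 without the pair, 19 with 1 fit), 16 in smg minus wild-type embryos (0 as deposited or without the pair, 235 with the block, 2 turned, 152 scaled, 71 with 1 fit) and 745 in unfertilized eggs (60 with 1 fit). Without 1 array they ran from 39 to 502, 1 to 36, 0 to 209 and 490 to 686. The 64 calls of named genes kept their direction in all 796 settings, and 193 settings no longer passed. The block and the turned sign do not apply to the fit of unfertilized eggs alone. No paired analysis was possible because the labels carry no replicate numbers that match single arrays across groups; the slide sets were the only block, and were run as given here.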
